A study of Mus musculus with 2 samples.

Results

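The 36 genes described here encode the scaffolds of the excitatory postsynaptic density and the auxiliary proteins of glutamate receptors. They were taken as a named list and matched by symbol. They comprise 2 cornichons, 6 transmembrane AMPA receptor regulatory proteins (TARPs), 2 Neto genes, Grip1, Grip2 and Pick1, 3 neuronal pentraxin genes, 4 membrane-associated guanylate kinases (MAGUKs), 4 Dlgap genes, 3 Shank genes, 3 Homer genes, 4 genes of calcium/calmodulin-dependent kinase II (CaMKII), Baiap2 and Arc. All 36 were found among the 43346 genes of the deposited tables. Total RNA longer than 200 nt was measured in hindbrain of healthy B6NCrl mouse embryos at embryonic day 15.5. The data form 1 group of 2 libraries: replicate 1 was a pool of 78 embryos and replicate 2 a pool of 62, each of both sexes, and each library was made from 10 ng of RNA. No second tissue, age or treatment was compared, so values are given with their spread over both libraries and without a test between conditions.

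At an excitatory synapse, glutamate opens AMPA, kainate and NMDA receptors in the postsynaptic membrane. MAGUKs such as PSD-95 bind the tails of some of these receptors or of their auxiliary subunits. Dlgap proteins join MAGUKs to Shank proteins, and Shank proteins join the complex to Homer and to the actin cytoskeleton. TARPs and cornichons assemble with AMPA receptors and change their traffic and gating, Neto proteins do so with kainate receptors, and CaMKII is the most abundant kinase of the mature postsynaptic density. In the mouse hindbrain late in gestation many neurons are still migrating or growing axons, and most synapses form later.

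Counts assigned to genes were 40020322 in replicate 1 and 43263959 in replicate 2, and spike-in RNA held 2.86% and 3.09% of all counts. The labelled tissue was checked on marker genes. All 12 hindbrain Hox genes and all 10 markers of postmitotic neurons were detected, with summed levels of 356 and 403 TPM for the Hox genes and 4780 and 4938 TPM for the neuronal markers in replicates 1 and 2. No spinal cord markers were examined, so this check cannot tell hindbrain from adjoining spinal cord. Of 15 forebrain markers 4 were detected, and their summed levels were 96.6 and 87.9 TPM. Markers of radial glia (8 of 8), astrocytes (6 of 6), the oligodendrocyte lineage (8 of 8), meninges (6 of 6) and peripheral ganglia (6 of 6) were also detected, as were 6 of 8 midbrain and 4 of 8 skeletal muscle markers, so the libraries hold RNA of many cell types. In such bulk RNA, fewer cells of a type and less RNA per cell cannot be told apart.

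All 36 genes were detected, with at least 1 TPM in each library, as were 63.1% of the 21461 nuclear protein-coding genes. TPM, the unit of the gene levels, is corrected for transcript length and library size, so genes can be set beside each other on it. The lowest count behind any value was 111 and the highest 11116, and 3 counts would correspond to 0.0362 TPM as the median over the members, a floor that covers counting error alone. The median member stood at 13.1 TPM in replicate 1 and 15.1 TPM in replicate 2, or 14.2 ± 1.45 TPM (SD of both library medians, n = 2). The median of all nuclear protein-coding genes was 5.72 TPM and that of the detected ones 19.4 TPM, so the members sat above the first and below the second. By mean TPM, 7 members were above 50 TPM, 16 between 10 and 50 TPM and 13 below 10 TPM, with a 133-fold span from Cnih2 to Cacng7. Together they held 1209 TPM in replicate 1 and 1383 TPM in replicate 2, and Cnih2 and Dlgap4 made up 38.7% and 40.1% of that. When the members were ordered by mean TPM, the ranges of both libraries overlapped for 20 of the 35 neighbouring pairs, and the separated pairs were more frequent among the higher members.

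**Figure D1:**
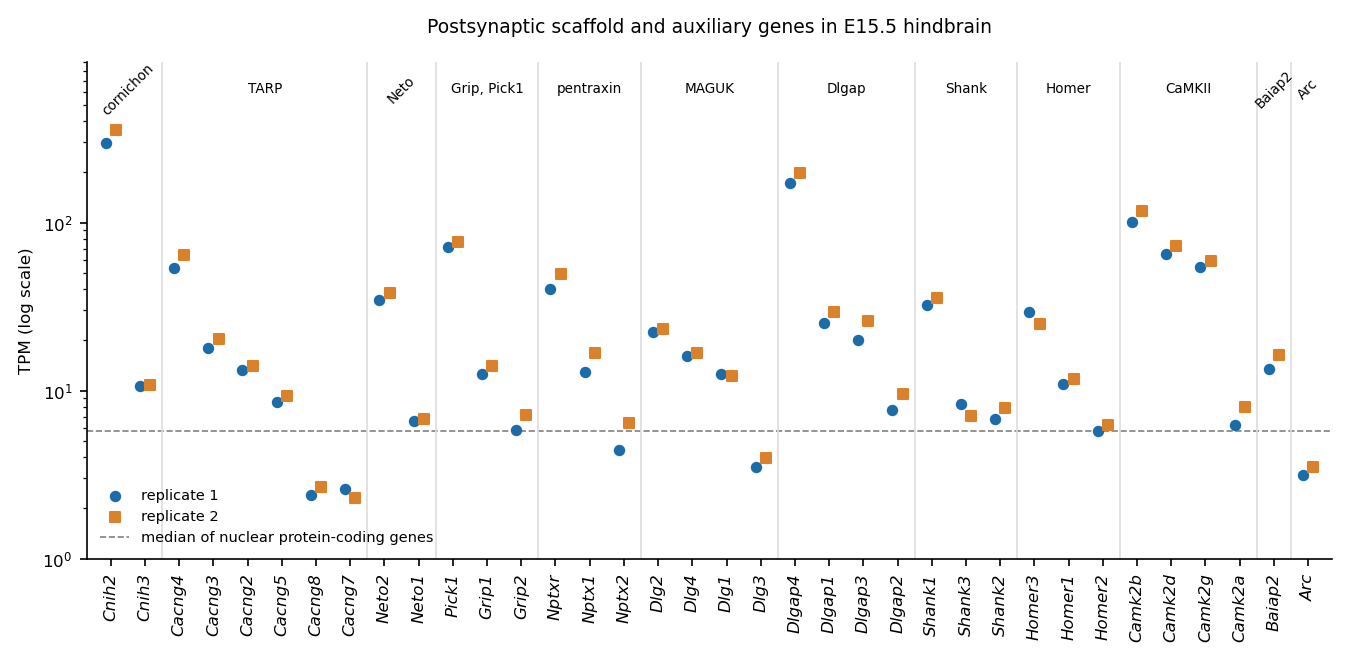
TPM (log axis) of the 36 genes in replicate 1 (circles) and replicate 2 (squares), grouped by family and ordered by mean TPM within each; the dashed line is the median of nuclear protein-coding genes, 5.72 TPM. In each multigene family 1 gene stands above the rest, from Cnih2 at 297 and 357 TPM to Dlg2 at 22.4 and 23.1 TPM.

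Among the auxiliary subunits of AMPA receptors, 1 cornichon and 1 TARP predominated. Cnih2, a cornichon that slows AMPA receptor closing, had 297 and 357 TPM in replicates 1 and 2 and was the most abundant member; 98.3% of coding genes were at a lower mean level. Its paralogue Cnih3 had 10.6 and 10.8 TPM, so Cnih2 was 27.9- and 33.0-fold higher and held 96.8 ± 0.367% of the pair's TPM (SD, n = 2). Among the TARPs, Cacng4 (gamma-4) had 53.8 and 64.2 TPM. Cacng3 (gamma-3) had 18.0 and 20.2 TPM, Cacng2 (stargazin, the TARP mutated in the stargazer mouse) 13.2 and 14.03 TPM, and Cacng5 (gamma-5) 8.55 and 9.26 TPM. Cacng8 (gamma-8) had 2.39 and 2.65 TPM and Cacng7 (gamma-7) 2.60 and 2.31 TPM; these ranges overlap, and both genes were at the bottom of the 36. The antisense gene A730060N03Rik shares 5.86% of the exonic bases of Cacng2 and had 1.28 and 1.78 TPM. Cacng4 held 55.8 ± 1.69% of the TARP TPM, and the first 4 TARPs kept their order in both libraries without overlap. Neto2, 1 of a pair of kainate receptor auxiliary subunits, had 34.8 and 38.2 TPM, and Neto1 6.55 and 6.75 TPM, so that Neto2 was 5.32- and 5.67-fold higher.

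Of the PDZ proteins that move AMPA receptors, Pick1 was the higher. Pick1, which binds receptor tails and protein kinase C, had 71.9 and 76.1 TPM. Grip1, a scaffold with several PDZ domains that holds receptors and links them to kinesin, had 12.6 and 13.9 TPM, and Grip2 had 5.79 and 7.19 TPM. Pick1 was thus 5.72- and 5.46-fold above Grip1 and 12.4- and 10.6-fold above Grip2. In the later annotation GENCODE M21, 18.6% of the exonic bases of Pick1 are shared with Gm49486 on the same strand. Gm49486 is not among the deposited genes, so no reads were counted under it.

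Neuronal pentraxins cluster AMPA receptors from outside the cell. Nptxr, the membrane-anchored form, had 39.9 and 49.5 TPM, the secreted Nptx1 had 13.0 and 16.7 TPM, and Nptx2, also known as Narp and induced by activity, had 4.44 and 6.37 TPM. Nptxr held 68.9 ± 1.03% of the pentraxin TPM. All 3 were higher in replicate 2, and their ranges did not overlap with each other. A same-strand gene, Npcd, shares 17.2% of the exonic bases of Nptxr and was at 0 and 0.300 TPM.

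Of the MAGUKs, 3 lay between 12.2 and 23.1 TPM and Dlg3 lower, 6.36- and 5.86-fold below Dlg2. Dlg2 (PSD-93) had 22.4 and 23.1 TPM, Dlg4 (PSD-95) 16.1 and 16.8 TPM and Dlg1 (SAP97) 12.5 and 12.2 TPM. Dlg3 (SAP102), the MAGUK associated with immature synapses in forebrain, had 3.52 and 3.95 TPM. The 4 ranges did not overlap in any pair. By gene totals Dlg2 was 1.39- and 1.38-fold above Dlg4. That order turned round when transcripts annotated as coding were summed alone: Dlg4 then held 49.2% of the MAGUK TPM and Dlg2 23.4%.

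Among the Dlgap genes, which link MAGUKs to Shanks, Dlgap4 had 172 and 197 TPM and was second among the 36. Dlgap1 (GKAP) had 25.4 and 29.3 TPM, Dlgap3 19.9 and 25.8 TPM and Dlgap2 7.63 and 9.54 TPM. Dlgap4 held 75.8 ± 0.830% of the family's TPM, most of it assigned to short forms that are described with the transcripts. Of the Shank genes, Shank1 had 32.4 and 35.6 TPM, Shank3 8.32 and 7.01 TPM and Shank2 6.79 and 7.85 TPM. Shank1 held 69.4 ± 1.64% of the Shank TPM, while the ranges of Shank2 and Shank3 overlapped. Homer3 led the Homer family with 29.2 and 24.9 TPM, followed by Homer1 with 10.97 and 11.7 TPM and Homer2 with 5.73 and 6.24 TPM. Homer3 shares 25.4% of its exonic bases with Ddx49 on the opposite strand, which had 35.3 and 37.4 TPM. The strand setting is not given in the sources used here, so reads of the 2 genes cannot be told apart with certainty. By counts not divided by length, Homer2 led that family with 44.1% and Homer3 held 32.4%. All of the Homer2 TPM was in Homer2-201, which is 10999 nt long in the deposited data and 1736 nt in GENCODE M21. The place of Homer2 in the TPM order depends on that length.

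CaMKII is a holoenzyme whose subunits are encoded by 4 paralogous genes, and alpha is the principal subunit in mature forebrain. In these libraries Camk2b had 100 and 117 TPM, Camk2d 64.6 and 72.9 TPM, Camk2g 54.4 and 59.1 TPM and Camk2a 6.26 and 7.93 TPM. Camk2b held 44.4% of the CaMKII TPM in replicate 1 and 45.6% in replicate 2. Over both libraries Camk2d held 28.5 ± 0.223%, Camk2g 23.6 ± 0.818% and Camk2a 2.93 ± 0.215%. Camk2b stood 16.0-fold above Camk2a in replicate 1 and 14.8-fold in replicate 2. The ranges of the 4 subunits did not overlap. Baiap2 (IRSp53), which binds actin and Shank, had 13.4 and 16.2 TPM. Arc, an immediate early gene whose protein drives AMPA receptor uptake, had 3.16 and 3.53 TPM.

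**Figure D2:**
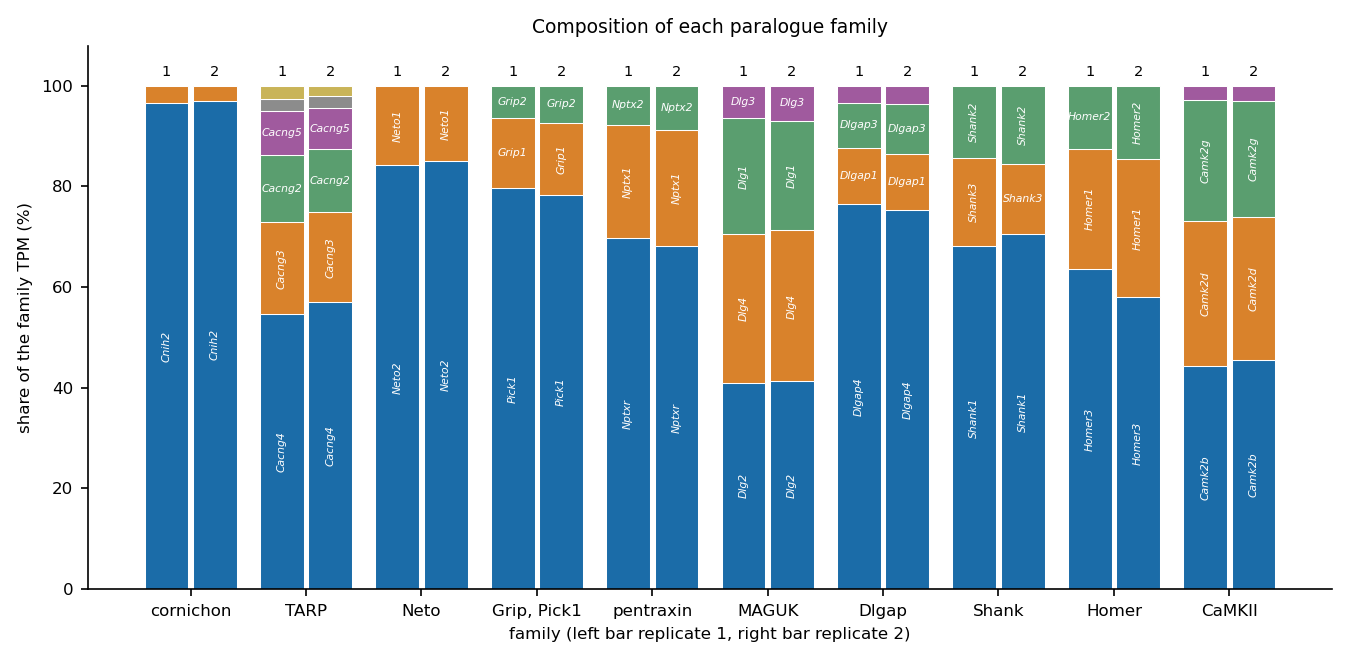
Share of each family's TPM (%) held by each gene, with replicate 1 as the left bar and replicate 2 as the right bar of each pair. Unlabelled segments at the top are Cnih3 (cornichon), Cacng8 in grey and Cacng7 in yellow (TARP), Dlgap2 (Dlgap) and Camk2a (CaMKII); the composition differed little between the bars, most for Homer3 at 63.6% and 58.1%.

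Genes that act beside the members were set next to them as counts. Of 17 glutamate receptor subunits 16 were detected, and the list's median was 18.9 TPM. The highest were the AMPA subunit Gria2 with 125 and 140 TPM, the obligatory NMDA subunit Grin1 with 46.9 and 49.6 TPM, the AMPA subunit Gria1 with 31.2 and 38.6 TPM and the metabotropic receptor Grm5 with 30.4 and 31.1 TPM. Of 15 other genes from auxiliary subunit families 13 were detected, the median was 14.7 TPM, and the highest were Olfm2 (159 and 185 TPM), Cnih1 (141 and 146 TPM), Cnih4 (53.4 and 43.2 TPM) and Cpt1c (39.8 and 42.6 TPM). Cnih1 and Cnih4 are the cornichons that act in export from the endoplasmic reticulum, and both were below Cnih2. Other genes of the postsynaptic density numbered 27 and all were detected; their median level was 16.9 TPM, and the highest were the actin-binding Dbn1 (398 and 462 TPM), Lin7c (140 and 143 TPM), Wasf1 (80.6 and 98.9 TPM) and Cyfip2 (72.4 and 77.2 TPM). The 6 inhibitory postsynaptic genes, also all detected, had a median level of 20.5 TPM and included the GABA-A receptor auxiliary subunit Lhfpl4 (47.7 and 52.2 TPM), gephyrin (Gphn, 35.6 and 38.01 TPM) and Nlgn2 (16.7 and 17.0 TPM). Of 8 activity-regulated genes 6 were detected, their list had a median of 2.83 TPM, and the highest were Nr4a1 (5.01 and 5.49 TPM), Junb (4.95 and 5.28 TPM), Bdnf (4.11 and 4.24 TPM) and Egr1 (2.87 and 3.15 TPM). Arc was thus in the range of the activity-regulated list. The median member, at 14.2 TPM, was nearest the median of the other auxiliary list (14.7 TPM). It was below the medians of the receptor, other postsynaptic density and inhibitory lists.

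The transcript tables divide each gene's reads among its annotated forms. The members had 242 annotated transcripts, and 7 members had 1 each. A transcript annotated as coding with at least 70% of the gene's longest coding length is called near full length here, a limit chosen after the values had been seen. The median member had 93.4% of its TPM in such forms, and 20 members had over 90%. The 7 members with 1 transcript each are among those 20 by definition, since their only form is coding. The share of all detected genes over 90% was not computed, so the 20 do not set the members apart. In 6 members, Dlgap4, Shank3, Dlg2, Dlgap1, Dlgap2 and Dlg1, near full-length forms held under 50% of the TPM, as in 14.8% of the 13542 detected nuclear protein-coding genes. By counts 3 of the members did, Dlgap4, Dlg2 and Dlgap1, beside 7.75% of those genes; Shank3 was at 73.5%, Dlg1 at 65.5% and Dlgap2 at 53.2% of counts. In 7 members, Camk2d, Dlgap1, Homer3, Dlg2, Dlg1, Dlgap2 and Dlg3, over 25% of the TPM was in transcripts not annotated as protein coding, such as retained introns, processed transcripts and targets of nonsense-mediated decay; 20.8% of detected coding genes did the same. By counts 5 members were over 25%, beside 12.5% of those genes, while Camk2d was at 11.2% and Homer3 at 10.4% of counts. Total RNA can hold unspliced RNA, and its part in these shares was not tested. Counted on near full-length forms alone, the median member was at 8.93 TPM, all 36 still reached 1 TPM, and Dlgap4 moved to rank 16 with 11.6 and 15.1 TPM, Dlg2 to rank 27 with 4.99 and 6.47 TPM and Shank3 to rank 36 with 1.82 and 1.41 TPM. Cnih2 and Camk2b were then first and second.

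**Figure D3:**
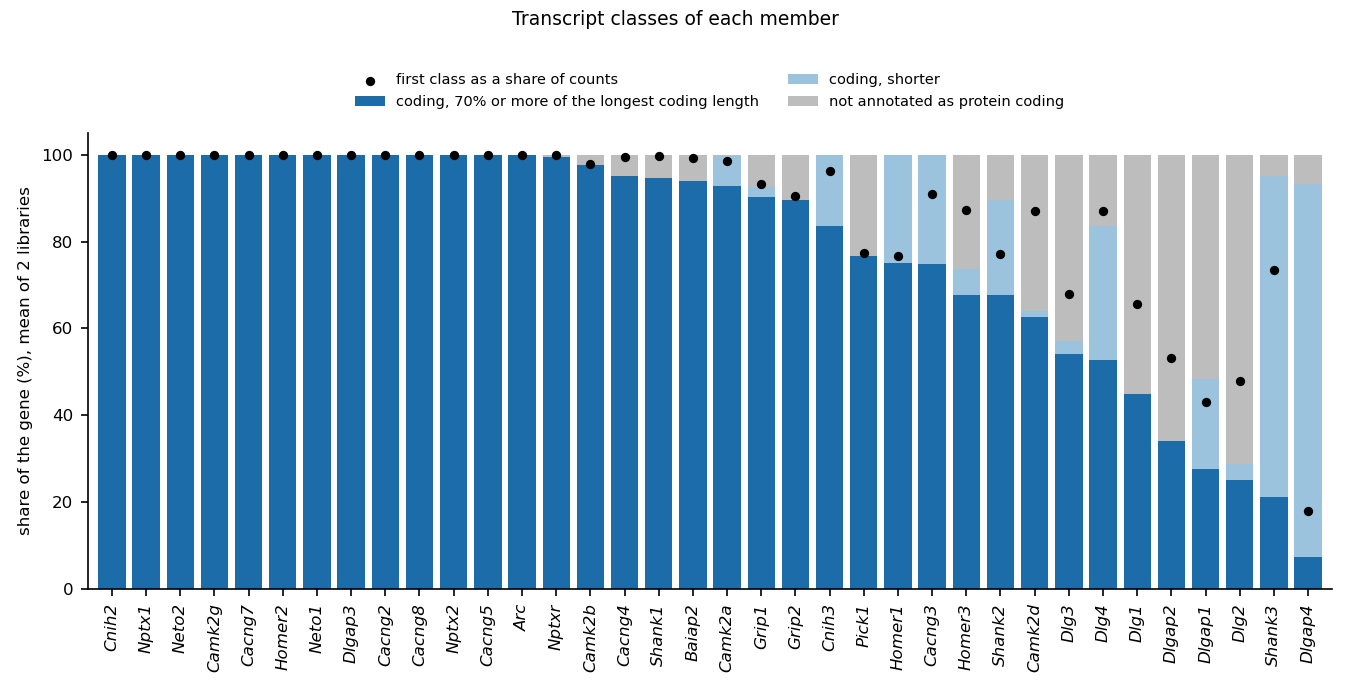
Share of each gene's TPM (%, mean of both libraries) in near full-length coding forms (dark blue), shorter coding forms (light blue) and transcripts not annotated as protein coding (grey); black points give the first class as a share of counts. Points stand well above the dark bars for Shank3 (73.5% of counts, 21.9% and 20.1% of TPM in replicates 1 and 2), Dlg4 (87.0% of counts, 52.8% of TPM), Camk2d (87.1% and 62.6%), Dlg2 (47.9% and 25.1%) and Dlg1 (65.5% and 44.8%), where short transcripts weigh more in TPM than in counts.

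In Dlgap4 most reads were assigned to forms that start far inside the gene. That assignment rests on the division of reads among annotated forms and was not checked on read coverage. The gene lies on the plus strand at chr2:156613705-156764363 in GRCm38. Its longest coding form, Dlgap4-212, codes over 2976 nt and had 10.5 and 11.3 TPM. The leading form, Dlgap4-204, starts 107 kb downstream at position 156721045, codes over 855 nt and had 97.3 and 109 TPM. Forms with the first coding exon of Dlgap4-212 held 7.23 ± 0.635% of the gene's TPM and 18.0 ± 1.59% of its counts. Forms that start downstream and reach the same last coding exon held 69.2 ± 1.39% of TPM and 62.7 ± 1.78% of counts, so the short forms led on both scales. The 1 RefSeq start listed for Dlgap4 (RefSeq, GRCm38.p6) is at position 156720965, 80 nt before the start of Dlgap4-204. The 250 bases before it are printed because they precede the start of the second most abundant member; they span chr2:156720715-156720964 on the plus strand, and capitals mark their 37 CpG dinucleotides.
Dlgap4 upstream of the internal start: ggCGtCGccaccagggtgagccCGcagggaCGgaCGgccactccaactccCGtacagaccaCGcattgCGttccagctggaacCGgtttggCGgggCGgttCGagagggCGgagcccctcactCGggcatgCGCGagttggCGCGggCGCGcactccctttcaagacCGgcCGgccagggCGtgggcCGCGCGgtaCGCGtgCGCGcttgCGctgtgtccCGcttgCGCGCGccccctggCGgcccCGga
With the 50 bases that follow the start, the 300-base window held 50 CG dinucleotides (a palindrome, so alike on both strands) and was 76.3% G or C. Of 32851 RefSeq promoter windows of that length 99.1% held fewer, and the median window held 7. The window thus belongs to the CpG-rich extreme of mouse promoters; no methylation or binding was measured.

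Shank2 and Grip1 were likewise assigned mainly to internal starts, and Shank3 was led by a fragment in TPM but not in counts. In Shank2, forms that start downstream and keep the last coding exon held 80.9 ± 1.42% of TPM, led by Shank2-202, which starts 174 kb inside the gene and codes over 4416 nt, with 4.19 and 4.43 TPM. Shank2-203, which codes over 5523 nt, had 0.580 and 0.700 TPM. Long Shank proteins are known to carry ankyrin repeats near their start. In Grip1, transcripts with the first exon of Grip1-205, 366 kb downstream of the first exon of Grip1-201, held 64.7 ± 1.63% of TPM, and those with the upstream exon 25.6 ± 1.47%. In Shank3, a transcript of 719 nt, Shank3-207, held 74.1 ± 0.494% of TPM and 22.8 ± 0.630% of counts, while forms with the last coding exon held 21.9% and 20.1% of TPM and 73.5 ± 2.35% of counts. The level of forms that reach the end of Shank3 rests on 331 and 274 counts.

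Homer1 gives rise to long proteins with a coiled coil that tetramerise, and to short proteins that end early. Homer1a, the short form induced by neuronal activity, lacks the coiled coil and uncouples long Homer proteins from their partners. Forms of Homer1 classed as long held 76.9 ± 1.40% of the gene's TPM and short forms 23.1 ± 1.40%. The long class includes Homer1-211, which codes over 576 nt and had 0.410 and 0 TPM in replicates 1 and 2. Near full-length forms held 75.0 ± 1.25% of TPM. The leading form, Homer1-202, had 6.34 and 7.28 TPM, and the short forms Homer1-206, Homer1-207 and Homer1-204 had 1.42 and 1.17 TPM, 0.380 and 1.19 TPM, and 0.540 and 0.470 TPM. Homer1-204, whose coding sequence of 558 nt reads on past the exon border as that of Homer1a does, was below Homer1-206 in both libraries, above Homer1-207 in replicate 1 and below it in replicate 2. The junction is printed because it is where the forms part: 24 shared coding bases, which end at chr13:93356056-93356079 on the plus strand in GRCm38, are in lower case and the next 31 coding bases of each form in capitals.
Homer1-202, long: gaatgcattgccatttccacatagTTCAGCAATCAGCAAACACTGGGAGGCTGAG
Homer1-203, long: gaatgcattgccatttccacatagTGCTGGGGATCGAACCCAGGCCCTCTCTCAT
Homer1-206, short: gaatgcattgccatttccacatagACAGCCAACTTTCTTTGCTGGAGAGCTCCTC
Homer1-204, short: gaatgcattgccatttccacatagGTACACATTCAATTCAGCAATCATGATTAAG
Homer1-207, also short, is identical to Homer1-203 over these bases, so reads confined to this junction do not tell that pair apart. Homer1-203 codes over 1098 nt and Homer1-207 over 579 nt.

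The CaMKII genes splice short exons in or out of the linker between the regulatory and the association domain. The linker of Camk2b takes part in binding F-actin, and a linker exon of Camk2a is known to add a nuclear localisation signal. In Camk2b, an exon of 75 nt was in 56.9% and 58.6% of the TPM of coding forms that span it, and an exon of 45 nt in 64.1% and 65.1%. In Camk2d, an exon of 60 nt was in 57.3% and 60.3%. In Camk2g, an exon of 33 nt was in 36.9% and 34.2%, and one of 69 nt in 45.2% and 43.6%. By counts the Camk2b exons were higher, at 70.5% and 71.6% for the 75-nt exon and 73.9% and 74.6% for the 45-nt exon. The Camk2d and Camk2g exons stayed close to their TPM shares, with 37.6% and 34.8% for the 33-nt exon. Each of these 5 exons thus had nearly the same share in both libraries. Examples are 57.8 ± 1.23% of TPM for the 75-nt exon and 35.6 ± 1.95% for the 33-nt exon (SD, n = 2). The exons are printed in capitals, read 5′ to 3′ on the transcript, between 12 bases of each neighbouring exon, because they are where the abundant forms of these kinases differ.
Camk2b 75-nt exon, chr11:5987057-5987131, minus strand: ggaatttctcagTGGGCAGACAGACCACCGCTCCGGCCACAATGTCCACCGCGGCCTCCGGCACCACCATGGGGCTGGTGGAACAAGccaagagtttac
Camk2b 45-nt exon, chr11:5981070-5981114, minus strand: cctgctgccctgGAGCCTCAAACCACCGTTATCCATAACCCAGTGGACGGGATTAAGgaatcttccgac
Camk2d 60-nt exon, chr3:126805857-126805916, plus strand: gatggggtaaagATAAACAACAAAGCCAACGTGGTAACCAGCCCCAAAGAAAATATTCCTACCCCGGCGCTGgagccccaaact
Camk2g 33-nt exon, chr14:20747819-20747851, minus strand: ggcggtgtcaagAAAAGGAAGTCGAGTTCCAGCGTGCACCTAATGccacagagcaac
Camk2g 69-nt exon, chr14:20745792-20745860, minus strand: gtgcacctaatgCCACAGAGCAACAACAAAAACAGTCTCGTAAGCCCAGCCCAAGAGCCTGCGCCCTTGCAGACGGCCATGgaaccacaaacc
Each of these lengths is a multiple of 3, so inclusion keeps the reading frame.

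The leading form of Camk2b, Camk2b-209, carries both the 75-nt and the 45-nt exon and had 53.4 and 61.2 TPM. Camk2b-201, which has neither, had 25.9 and 28.8 TPM. Camk2a had a TPM share of 52.2% and 66.5% for its own 33-nt exon, or 59.4 ± 10.2%, at 588 and 789 counts for the whole gene. By counts that exon was at 40.3% and 55.2%. The spread of the least abundant subunit was thus the largest of the 6 exons.

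**Figure D4:**
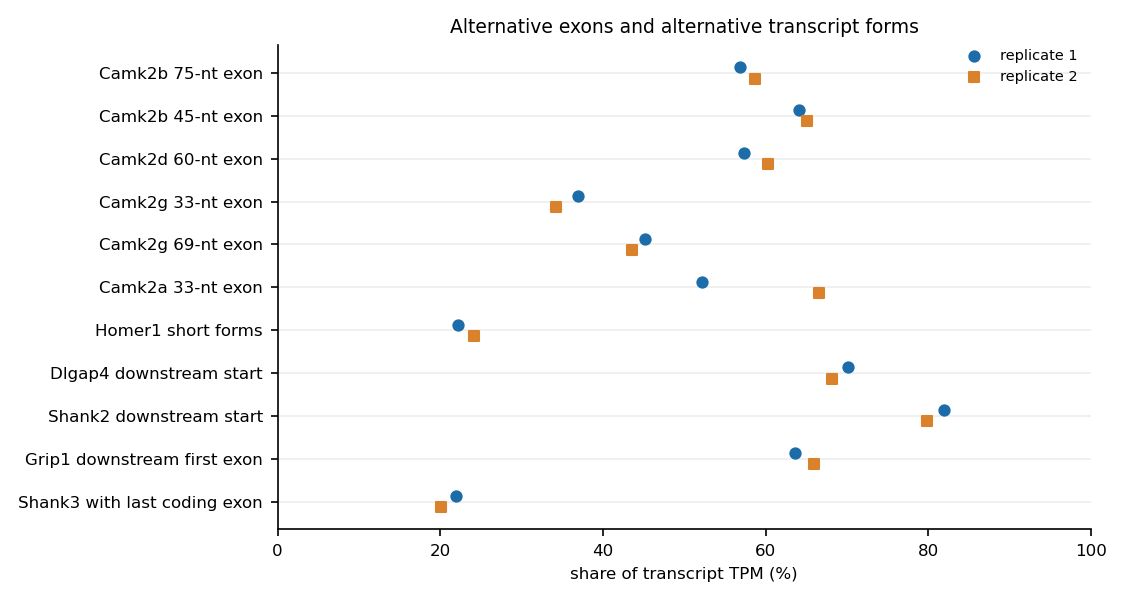
Share of transcript TPM (%) in replicate 1 (circles, upper) and replicate 2 (squares, lower) for 6 CaMKII exons, as a share of the coding forms that span each, and for 5 classes of transcript, as a share of the gene. Both libraries lie close together in every row except the Camk2a exon, at 52.2% and 66.5%.

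Leading transcripts were compared for the 26 members that had several annotated transcripts and at least 5 TPM in each library. The same transcript led in both libraries in 22 of the 26; over all such genes 93.6% of 8395 had the same leader. In Dlgap1, Dlg2, Cacng5 and Dlgap2 the leader differed. In 8 of the 26, Camk2d, Dlgap1, Homer3, Dlg2, Dlg4, Baiap2, Dlg1 and Dlgap2, the leader held under 50% of the TPM, as in 25.4% of all such genes. In Cacng5 the change is between forms that both code over 825 nt: Cacng5-201 had 5.92 and 4.44 TPM and Cacng5-202 2.63 and 4.82 TPM. In Dlg2 the leaders were a retained intron, Dlg2-209, with 5.73 and 3.65 TPM, and a noncoding transcript, Dlg2-207, with 4.46 and 5.79 TPM, while by counts the coding forms Dlg2-201 (24.97% of counts in replicate 1) and Dlg2-204 (30.0% in replicate 2) led. Dlgap1 was led by the retained intron Dlgap1-213 in replicate 1 (5.92 and 4.66 TPM) and by the coding Dlgap1-207 in replicate 2 (3.84 and 6.06 TPM), and by counts Dlgap1-207 led in both.

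The pools were then compared with each other, as a measure of how far 2 collections of the same tissue agree on these genes. Counts were scaled by TMM, and the log2 ratio is replicate 1 over replicate 2. No member was past 1.5-fold in either direction, where 6.48% of 17048 genes compared were. Every member had a mean count above 100, and of the 13844 genes at that level 2.02% were past 1.5-fold, so a count of 0 among 36 does not set the members apart. Of the 36, 31 had a ratio below 0, that is, were higher in replicate 2, where 50.5% of all genes compared did. The median ratio of the members was −0.10, against 0.00 for all genes. The 95% interval from counting error lay wholly below 0 for 19 members, wholly above 0 for Homer3 and Shank3, and spanned 0 for 15. Over all genes compared it lay below 0 for 19.6% and above 0 for 18.5%, and at mean counts from 100 up for 22.5% and 19.6%. Nptx2 had the lowest ratio, −0.49 (interval −0.71 to −0.27), with 282 and 427 counts. Dlgap3 followed with −0.34 and Nptx1 with −0.34, and Camk2a had −0.31, all higher in replicate 2. At the other end Shank3 had 0.32 (interval 0.12 to 0.52) with 441 and 381 counts, Cacng7 0.20 (interval −0.15 to 0.56) and Homer3 0.18 (interval 0.07 to 0.29). The count of 31 rests on the scaling: by spike-in totals, which moved the median of all genes to 0.11, 17 of 36 members were below 0, beside 23.9% of all genes, and the members' median was 0.01. A change of scaling moves every ratio by the same amount. The members' median minus that of all genes, −0.10, therefore cannot differ between the scalings and does not test the shift.

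**Figure D5:**
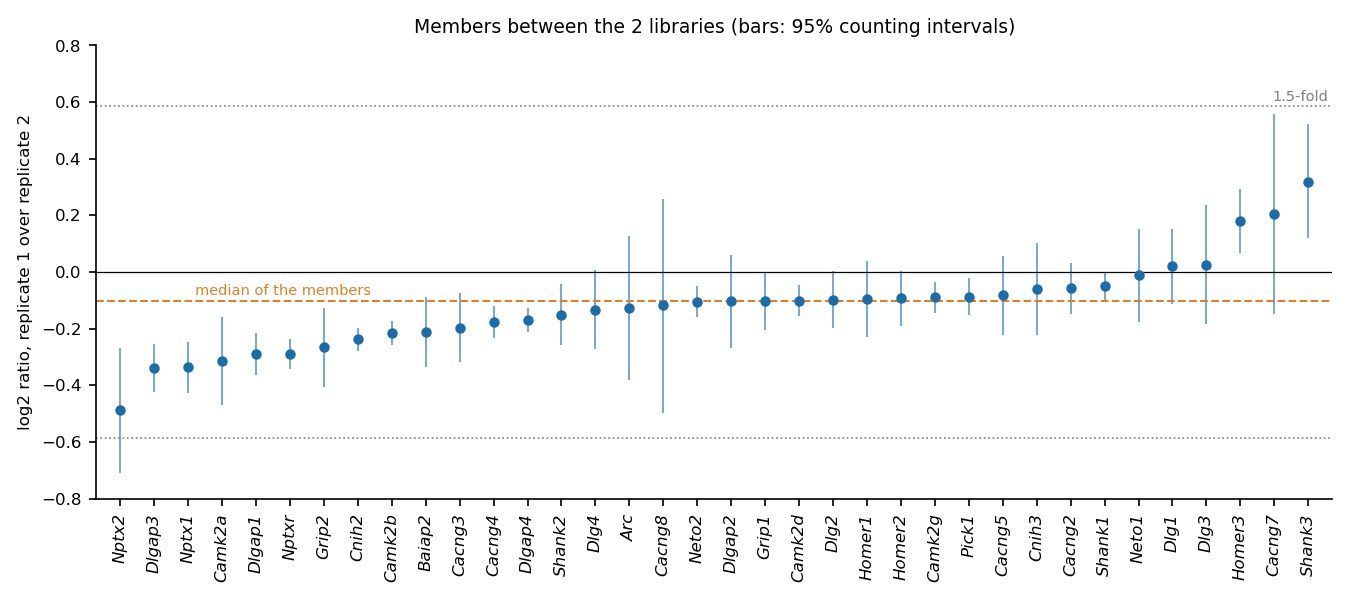
Log2 ratio of replicate 1 over replicate 2 after TMM scaling for the 36 genes, ordered by ratio, with 95% counting intervals; dotted lines mark 1.5-fold and the dashed line the members' median, −0.10. Points run from Nptx2 at −0.49 to Shank3 at 0.32, and none passes a dotted line.

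Markers of other tissues differed between the pools more than the members did. Forebrain markers had a median log2 ratio of −1.38, with 8 of 14 compared past 1.5-fold toward replicate 2 and 1 toward replicate 1. Their summed levels were 96.6 and 87.9 TPM. The 1 marker past 1.5-fold toward replicate 1 made up 50.7 and 9.96 TPM of those sums, which therefore do not show the direction of most forebrain markers. Meningeal markers summed to 1330 and 966 TPM (median ratio 0.35), peripheral ganglion markers to 157 and 119 TPM (0.59) and skeletal muscle markers to 23.5 and 15.7 TPM (0.50), each higher in replicate 1. Midbrain markers summed to 116 and 94.0 TPM (0.45). Markers of postmitotic neurons were at −0.01 with 6 of 10 below 0, hindbrain Hox genes at −0.12 with 10 of 12 below 0, radial glia at 0.07, astrocytes at 0.04 and the oligodendrocyte lineage at 0.05. Their part in the members' ratios was not tested. Among the neighbouring synaptic lists, 13 of 17 receptor subunits (median −0.06), 12 of 13 other auxiliary genes (−0.19), 19 of 27 other postsynaptic density genes (−0.06) and 6 of 6 inhibitory genes (−0.08) were below 0, and none was past 1.5-fold. Of the activity-regulated genes 6 of 7 were below 0 (−0.10), and Npas4, named here after its value was seen, was past 1.5-fold with 0.260 and 0.450 TPM and a ratio of −0.77 (interval −1.62 to 0.02).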

How the data were processed

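Total RNA of E15.5 hindbrain was measured in 2 libraries of 1 group, which the labels call biological replicates. The deposited tables use mm10 and GENCODE M4 and were derived from alignments to the transcriptome, 1 library per table, per the file headers and notes. Which aligner and quantifier were used, and whether with strand, is not given in the sources used. The deposited expected counts are estimated reads per gene or transcript and need not be whole. The deposited TPM and FPKM values are scaled by effective length and, for TPM, over all features of a file, spike-ins included, per the file headers; FPKM served as an alternative for detection. The deposited posterior values, a signal with credibility bounds per the file headers, served as an alternative too, and the deposited percent of a gene held by a transcript was not printed: shares were computed from transcript TPM.

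The 36 members and the 15 gene lists were chosen with earlier results of these data known. Symbols, coding lengths and exons were looked up by unversioned identifier in GENCODE M21 (GRCm38, equal to mm10): 42462 of 43346 genes matched, and 240 of 242 member transcripts under the same gene, 192 of them with unchanged length. Sequences came from GENCODE M21 transcripts and, for Dlgap4, from RefSeq. Library sizes excluded spike-ins and features with numeric identifiers. Detection was 1 TPM in both libraries. Ratios used TMM scaling in edgeR 4.0.16 (R 4.3.3), a prior count of 0.5 and a mean count of 20 or more; intervals are exact Clopper-Pearson at 95% and cover counting error alone, since reads are not independent molecules. The calculation was tested on simulated data. With 1 library per pool, no p-value was computed, and the spread between pools may be partly technical. All members are named; in the 5 synaptic lists the 4 genes of highest mean TPM are named, and any gene with a mean count of 100 past 1.5-fold, which none was; marker genes are given as counts and sums. A gene and an exon that these rules would name are not reported here. Effective length makes the TPM of short transcripts the least certain.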

Additional observations from a re-analysis of the deposited data

How the results depend on the processing

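Under all alternatives run, 36 of 36 members were detected and 0 of 36 were past 1.5-fold. No paired analysis was possible because there is 1 group, and ratios need both libraries, so none was left out there. The median level was 18.1 TPM when rescaled over nuclear protein-coding genes and 8.93 TPM on near full-length forms; leaving out 1 library gave 13.1 to 15.1 TPM. Spike-in scaling took the median ratio to 0.00999, on the other side of 0, and the count of members higher in replicate 2 to 17; the cause was not tested. The other 6 alternatives kept the median below 0, with 31 members or, by the TPM ratios, 32, and medians down to −0.15. Those that changed the minimum on counts could not alter this or the 0 past 1.5-fold, since every member had a mean count above 100. With a gene minimum of 20 TPM, 11 members were left, of which 9 had 1 leader and 4 a leader under 50%; with coding transcripts alone 5 had a leader under 50%. By counts not divided by length the leading shares were Cnih2 94.0%, Dlgap4 61.5%, Pick1 60.2%, Homer3 32.4% (behind Homer2 at 44.1%), Dlg2 43.2%, Neto2 89.8%, Nptxr 70.9% and Shank1 78.1%. On near full-length forms they were Camk2b 49.9%, Cnih2 97.3%, Dlgap4 28.7% (behind Dlgap3 at 49.1%), Pick1 76.1%, Homer3 55.7%, Dlg2 25.9% (behind Dlg4 at 39.5%) and Shank1 83.0%. On coding forms they were Camk2b 49.6%, Dlgap4 81.5%, Pick1 75.8%, Homer3 53.4% and Dlg2 23.4%, and by posterior mean TPM Dlg2 was at 39.6%. The alternatives by transcript class and those for the count of members higher in replicate 2 were chosen after seeing the data. Depth limits the lowest members most: counting intervals had a median half-width of 0.11 on the log2 scale, and those of Cacng7 and Cacng8 rest on 111 to 142 counts.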
